A study of Mus musculus with 6 samples.

Results

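The chemokine genes Cxcl10, Cxcl1, Cxcl2, Cxcl3, Cxcl5, Cxcl16, Ccl2, Ccl7 and Ccl20 and the chemokine receptor gene Cxcr3 were examined in the mouse mammary carcinoma line 4T1, which forms metastases in mice. The 10 genes were chosen by name with their measured differences between these groups already known, so their values are given as a description, without a test of their own. Every probe set with exactly 1 gene symbol, that symbol being one of the 10, was kept, which gave 13 of 45037 probe sets and 10 of 18193 named genes. Cells transduced with a control shRNA vector and cells transduced with a vector expressing an shRNA against NFAT1 were compared, with 3 Affymetrix arrays each. NFAT1, the product of Nfatc2, is a transcription factor that calcium and the phosphatase calcineurin bring into the nucleus. All cells were adherent cultures collected after 10 days of selection, and no untransduced cells are among the 6 arrays. The labels give neither the control shRNA's target nor the number of shRNA sequences or clones, nor whether each array is a culture of its own. The p-values therefore rest on the spread between samples, and this spread can be technical.

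Chemokines are small secreted proteins that direct the migration of leukocytes by binding receptors coupled to G proteins. CXCL9, CXCL10 and CXCL11 are induced by interferons and attract activated T cells and natural killer cells through CXCR3. CXCL1, CXCL2, CXCL3 and CXCL5 attract neutrophils through CXCR2, and CCL2 and CCL7 attract monocytes through CCR2. CCL20 binds CCR6, and CXCL16 is made as a membrane protein that binds CXCR6 and can be shed. Tumour cells can secrete several of these ligands, and NF-kB is a known inducer of many of their genes.

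The stretch of DNA just before the start of a gene is shown for the 3 neighbouring CXCR2 ligand genes that did not share 1 pattern on these arrays, for Cxcl10, the CXCR3 ligand, and for Cxcr3. RefSeq promoter windows (GRCm38.p6) were matched by symbol for 6 of the 10 genes, and Cxcl5, Cxcl16, Ccl2 and Ccl7 had no window in the table. Each sequence runs 5′ to 3′ on the gene's strand and ends at the last base before the annotated start. Cxcl1 is shown at chr5:90891125-90891244 (plus strand), Cxcl2 at chr5:90903779-90903898 (plus), Cxcl3 at chr5:90785981-90786100 (plus), Cxcl10 at chr5:92348890-92349109 (minus) and Cxcr3 at chrX:101734148-101734267 (minus). Capitals mark matches to the NF-kB consensus on either strand and, in Cxcl10, the match to the interferon-stimulated response element (ISRE) core as well.
Cxcl1: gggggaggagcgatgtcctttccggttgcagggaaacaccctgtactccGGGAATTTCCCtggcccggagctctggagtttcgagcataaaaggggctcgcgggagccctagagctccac
Cxcl2: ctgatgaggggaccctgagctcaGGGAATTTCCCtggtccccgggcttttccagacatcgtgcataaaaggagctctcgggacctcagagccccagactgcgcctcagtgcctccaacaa
Cxcl3: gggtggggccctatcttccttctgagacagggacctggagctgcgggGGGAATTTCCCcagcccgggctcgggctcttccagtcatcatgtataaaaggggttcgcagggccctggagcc
Cxcl10: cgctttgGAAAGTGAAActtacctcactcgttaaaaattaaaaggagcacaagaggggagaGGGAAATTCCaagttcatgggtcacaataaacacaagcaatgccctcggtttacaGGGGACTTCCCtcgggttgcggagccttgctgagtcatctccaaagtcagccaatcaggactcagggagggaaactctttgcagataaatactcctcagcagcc
Cxcr3: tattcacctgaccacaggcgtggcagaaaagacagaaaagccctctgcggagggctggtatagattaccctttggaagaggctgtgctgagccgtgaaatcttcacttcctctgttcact

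The same 10 bases, GGGAATTTCC, lay before all 3 of Cxcl1, Cxcl2 and Cxcl3, starting 71, 97 and 73 bases before the annotated start. Cxcl10 held GGGAAATTCC 159 bases and GGGGACTTCC 104 bases before its start, the latter overlapping GGGACTTCCC, which starts 1 base later. Ccl20 held GGGGTTTTCC on the opposite strand, 80 to 71 bases before its start. An NF-kB match thus stood in 5 of the 6 windows of 250 bases, against 7.25% of all 32851 windows in the table. The ISRE core, GAAANNGAAA, was found only in the Cxcl10 window among the 6 (2.98% of all windows), 213 to 204 bases before the start. The core of NFAT sites, GGAAA, was in 5 of the 6, but 55.6% of all windows held it, and in all 5 genes 1 of its matches lay inside an NF-kB match; another in Cxcl10 overlapped the ISRE core. The AP-1 motif TGANTCA was in the Cxcl10 window alone (6.75% of all windows), and TATAAA in that of Cxcl3 alone (12.4%). The Cxcr3 window held none of these 5 motifs on either strand, which says only that these letters were not in it. Over the 120 bases before the start, Cxcl1 and Cxcl3 were 69.2% identical in a global alignment, Cxcl1 and Cxcl2 60.8%, and Cxcl2 and Cxcl3 58.3%. Each of these 3 against Cxcl10 or Cxcr3 gave from 47.5% to 58.3%. Cxcl2 was thus as like Cxcl10 as it was like Cxcl3 (58.3% each). A match is a description of letters, and binding was not measured here.

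Values are log2 RMA signals, so a difference of 1 is a 2-fold difference, and array medians were 5.42 to 5.48. Differences are NFAT1 shRNA minus control throughout. Signals near or below the array medians are compressed toward the background, and a fold there can be understated. Limma over all probe sets passed 90 probe sets at an adjusted p under 0.05. Of the 6 Nfatc2 probe sets, 2 had a higher and 4 a lower mean with the NFAT1 shRNA, and 0 passed. An unadjusted p under 0.05 was found for 2 of the lower and 1 of the higher ones. The farthest apart, 1439205_at, read 6.05, 6.18 and 5.91 on controls 1 to 3 and 5.15, 5.43 and 5.29 on NFAT1 shRNA 1 to 3 (limma adjusted p = 0.0707; exact permutation p = 0.1, the smallest that 3 against 3 can give). The probe set 1426032_at went the other way without overlap, reading 5.92, 5.92 and 5.86 on the controls and 6.19, 6.48 and 6.09 on the NFAT1 shRNA arrays (difference 0.35, limma adjusted p = 0.251). The probe sets of the targeted gene thus disagreed in direction. Arrays are therefore named by their labels. Control shRNA 3 read between controls 1 and 2 on 50.4% of all probe sets, on 98.3% of the 415 probe sets whose controls spanned at least 1 log2 unit, and on all 13 chemokine and Cxcr3 probe sets. NFAT1 shRNA 1 lay inside the range of the controls on 6 of the 13, against 41.3% of all probe sets. Whether control 3 is independent of the other controls was not tested.

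Cxcr3 had a clearly higher mean signal in NFAT1 shRNA cells, and Cxcl3 and Cxcl10 had the lowest ones relative to control. Each of the 3 stood more than 4-fold apart between group means. Cxcl16 was lower by a small step, and the other CXCR2 ligands and the 3 CC chemokines overlapped between groups. Of the 13 probe sets 0 passed limma over all probe sets, where 0.200% of all passed, and 4 had an unadjusted p under 0.05, as had 15.7% of all probe sets. With 1 probe set per gene, that with the highest mean, 1 of the 10 genes passed, Cxcr3, where 0.181% of 18193 genes passed as higher. Cxcr3 passed in 8 of 15 alternative settings, Cxcl3 in 3 and the other 8 genes in 0. Cxcl3 passed only in the 3 settings where the largest shares of all probe sets passed. These were without NFAT1 shRNA 1 (12.9% of all), with array weights (5.06%) and with the replicate block (3.18%). Among the fits that left out 1 array, Cxcr3 passed without NFAT1 shRNA 1 or 3, where 12.9% and 0.178% of all probe sets passed. It did not pass without NFAT1 shRNA 2 or any of the controls, where 0 of all probe sets passed. Groups did not overlap for 5 of the 13, with 1 higher, Cxcr3, where 11.6% of all probe sets were higher without overlap. The other 4, Cxcl10, Cxcl3 and both Cxcl16 probe sets, were lower, where 9.33% of all were lower without overlap. The median difference was -0.052 over the 13 probe sets and 0.019 over all probe sets. Nothing is read from these counts, since the genes were chosen on the same comparison.

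**Figure D1:**
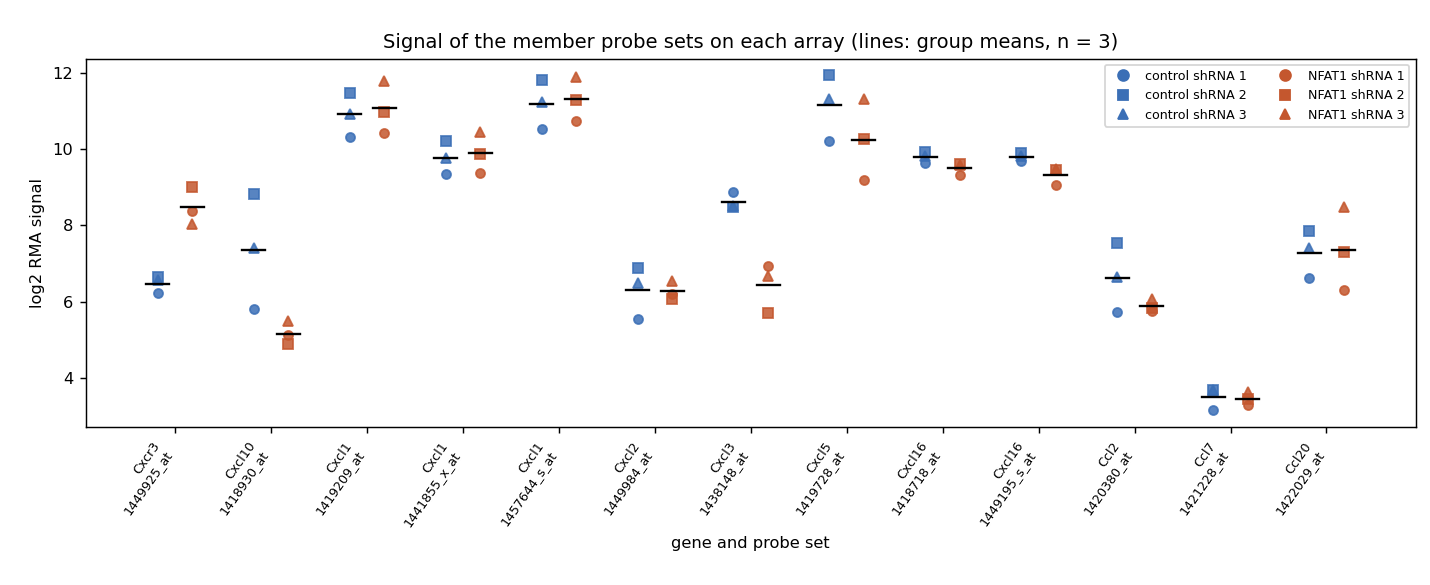
Log2 RMA signal (y axis) of the 13 probe sets (x axis) on each of the 6 arrays, blue for control shRNA and orange for NFAT1 shRNA, with marker shapes for replicates 1 to 3 and lines at group means. Cxcr3 lies higher on all NFAT1 shRNA arrays, Cxcl10, Cxcl3 and Cxcl16 lie lower, and the other probe sets overlap.

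Cxcr3 (1449925_at), the receptor that T cells use to follow CXCL10, read 6.22, 6.64 and 6.56 on controls 1 to 3 and 8.39, 9.01 and 8.04 on NFAT1 shRNA 1 to 3. All 3 NFAT1 shRNA arrays stood above every control, and NFAT1 shRNA 1, which lay inside the range of the controls on 6 other probe sets, was apart from them here. The group means were 6.47 ± 0.22 and 8.48 ± 0.49 (SD, n = 3), and the difference was 2.004 ± 0.25 (SE), or 4.01-fold. Without any single array the difference stayed between 1.74 and 2.22. On bulk RNA, more cells with the transcript and more transcript per cell cannot be told apart. The difference was 2.05 without NFAT1 shRNA 1 and the same to 2 decimals without control 3, and 2.09 without both.

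Cxcr3 is best known as a gene of leukocytes, so markers of leukocytes and of other cell types were read beside it. Of 31 leukocyte probe sets (18 of 20 listed genes), 0 passed limma over all probe sets, 1 higher and 1 lower had an unadjusted p under 0.05, and 23 were below the array medians on every array. Their mean signal ran from 4.39 to 4.47 on control arrays and from 4.42 to 4.59 on NFAT1 shRNA arrays. The T cell receptor chain genes Cd3e, Cd3d and Cd3g differed by 0.18, -0.03 and 0.08 and were near or below the array medians in both groups. Ptprc, which encodes the pan-leukocyte protein CD45, read 2.95 and 2.96 on 1422124_a_at and 2.69 and 2.86 on 1440165_at in control and NFAT1 shRNA cells, overlapping between groups on both and far below the array medians. Leukocyte list genes above the array medians included the receptor gene Csf1r on 1419872_at (8.26 ± 0.21 and 8.09 ± 1.02) and the lysosomal gene Cd68 (6.54 ± 0.31 and 7.30 ± 0.93; SD, n = 3). The T cell gene Cd4 was above them on 1419696_at (6.11 and 6.12, with overlap) and below them on 1427779_a_at (4.11 in both groups). The part of other cells in the Cxcr3 signal was not tested beyond these levels. Epithelial markers averaged 10.47 to 10.57 on control arrays and 10.26 to 10.35 on NFAT1 shRNA arrays over 18 probe sets, of which 0 passed, with a median difference of -0.0071. Without overlap 3 of the 18 were lower, all of the basal keratin gene Krt14, with differences of -2.21 on 1460347_at (limma adjusted p = 0.118), -2.12 on 1423935_x_at and -0.43 on 1455573_at. Without overlap 2 were higher, those of the luminal keratin gene Krt18 (0.27 on 1448169_at, limma adjusted p = 0.256) and of the adhesion gene Epcam (0.29 on 1447899_x_at, limma adjusted p = 0.341). Of 21 stroma and endothelium probe sets 0 passed and 19 were below the array medians on every array.

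Cxcl10 (1418930_at), the CXCR3 ligand with the ISRE and NF-kB matches shown above, read 5.82, 8.82 and 7.42 on the controls and 5.11, 4.88 and 5.48 on the NFAT1 shRNA arrays. The groups did not overlap, but control 1 was only a little above NFAT1 shRNA 3, while control 2 was far higher. The control arrays thus spanned 8.04-fold and the NFAT1 shRNA arrays 1.52-fold. The means were 7.35 ± 1.505 and 5.16 ± 0.30 (SD, n = 3), a difference of -2.20 ± 0.69 (SE), with control cells 4.58-fold higher. The spread between controls, 3.01 log2 units, was larger than this difference. Without control 2 the difference was -1.46 and without control 1 it was -2.96, so single controls move it by more than 1.5 times in fold. In NFAT1 shRNA cells its mean was under the array medians. The other CXCR3 ligands were dim: both Cxcl9 probe sets (0.09 and 0.05) and Cxcl11 on 1419698_at (-0.09) overlapped between groups. Cxcl11 on 1419697_at read 4.60, 5.56 and 5.56 on the controls and 4.75, 4.56 and 5.24 on the NFAT1 shRNA arrays (difference -0.39, limma adjusted p = 0.540).

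**Figure D2:**
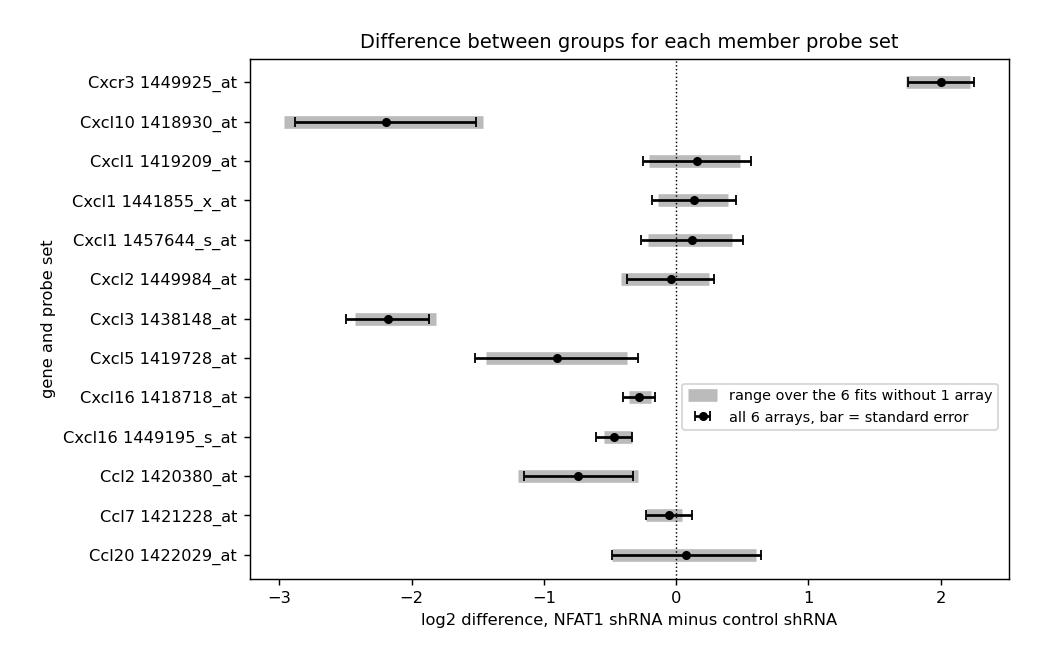
Log2 difference, NFAT1 shRNA minus control shRNA (x axis), for each of the 13 probe sets (y axis); points are the fit to all 6 arrays with standard errors, and grey bars the range over the 6 fits that leave out 1 array. Cxcr3 stays between 1.74 and 2.22, Cxcl3 between -2.43 and -1.81, and Cxcl10 has the widest range.

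The CXCR2 ligands did not share 1 pattern. Cxcl3 (1438148_at) read 8.87, 8.48 and 8.52 on the controls and 6.94, 5.70 and 6.68 on the NFAT1 shRNA arrays. The controls lay close together, and every NFAT1 shRNA array was more than 1 log2 unit below all of them. The means were 8.62 ± 0.22 and 6.44 ± 0.65 (SD, n = 3), a difference of -2.18 ± 0.31 (SE), with control cells 4.54-fold higher. Leaving out single arrays gave from -2.43 to -1.81.

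Cxcl1, a major neutrophil attractant, read 10.32, 11.49 and 10.93 on the controls and 10.42, 10.99 and 11.80 on the NFAT1 shRNA arrays with probe set 1419209_at. The groups overlapped almost wholly, with the lowest array of each group near the other. The mean was 10.91 ± 0.58 against 11.07 ± 0.69 (SD, n = 3), a difference of 0.16 ± 0.41 (SE). The probe sets 1441855_x_at and 1457644_s_at gave 0.13 and 0.12, and all 3 had the same order of arrays within each group. The sign of all 3 turned in some fits without 1 array (lowest -0.21, highest 0.48 on 1419209_at).

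Cxcl2 (1449984_at), whose protein is close to that of Cxcl1, read 5.56, 6.88 and 6.49 on the controls and 6.19, 6.07 and 6.54 on the NFAT1 shRNA arrays. All 3 NFAT1 shRNA arrays lay inside the range of the controls, and the difference was -0.04 ± 0.33 (SE). Cxcl1 and Cxcl2 thus overlapped between groups while Cxcl3 did not. A test of this contrast between genes was not run, since the genes were chosen on these values. The same 10-base NF-kB match stands before all 3 genes, and its part in their signals was not tested.

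Cxcl5 (1419728_at) read 10.20, 11.94 and 11.32 on the controls and 9.18, 10.25 and 11.32 on the NFAT1 shRNA arrays. NFAT1 shRNA 3 was level with control 3, while NFAT1 shRNA 1 was below every control. The difference was -0.90 ± 0.62 (SE) between means of 11.15 ± 0.88 and 10.25 ± 1.07 (SD, n = 3), changing to -0.37 when NFAT1 shRNA 1 was left out and to -1.44 when NFAT1 shRNA 3 was. The arrays of a group spanned 3.33-fold in control cells and 4.38-fold in NFAT1 shRNA cells.

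Among chemokine genes, Cxcl5, Ppbp, Pf4, Cxcl3, Cxcl15, Cxcl1 and Cxcl2 stand in this order on chromosome 5 in the GRCm38.p6 gene table. Genes of other kinds between them were not considered. Cxcl3 had the largest difference of these chemokine genes, and the next ones on either side, Pf4 (0.09) and Cxcl15 (0.07 and -0.14 on its 2 probe sets), were dim and overlapped. At the Cxcl5 end of the row, Cxcl5 (-0.90) and Ppbp had lower means with overlap. At the other end Cxcl1 (0.12 to 0.16) and Cxcl2 (-0.04) were near 0. Whether position in the row and direction go together was not tested. Ppbp, which encodes the platelet CXCR2 ligand CXCL7, read 7.04, 5.62 and 6.61 on the controls and 5.08, 4.98 and 5.87 on the NFAT1 shRNA arrays. The groups overlapped, and it did not pass (difference -1.12 ± 0.40 (SE), limma adjusted p = 0.272). Unlike Cxcl1, Cxcl2 and Cxcl5, Ppbp and Cxcl3 were highest on control 1 among the controls.

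**Figure D3:**
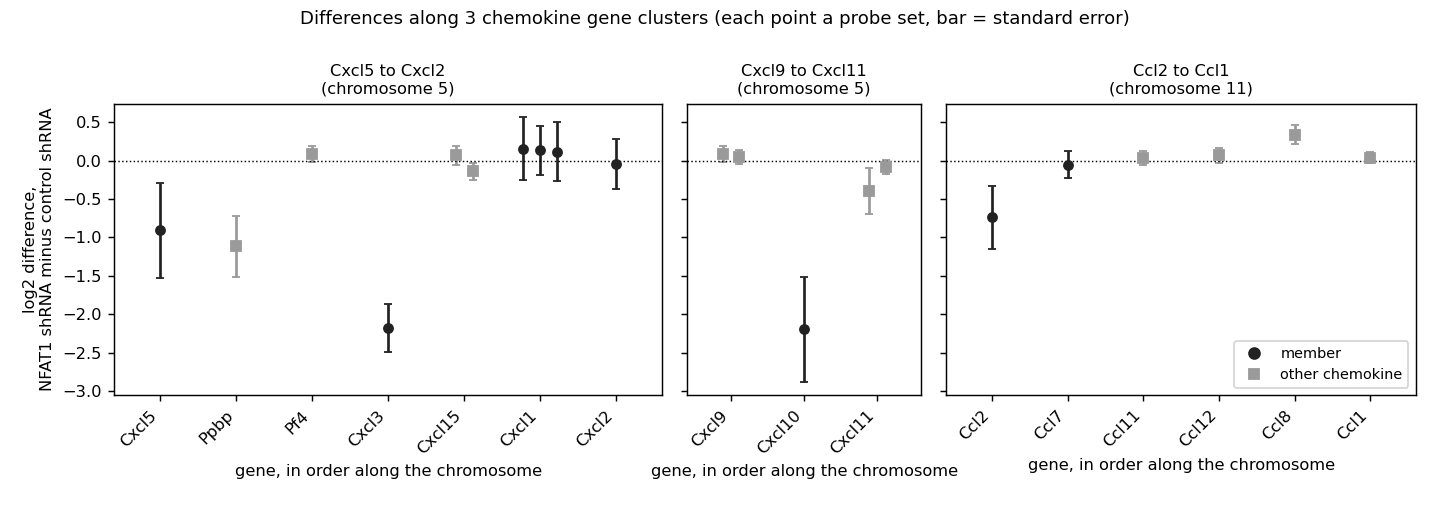
Log2 difference, NFAT1 shRNA minus control shRNA (y axis), for chemokine probe sets in gene order along 3 clusters on chromosomes 5, 5 and 11 (x axis), with standard errors; black points are the examined genes and grey squares other chemokine genes. Cxcl3 (-2.18) and Cxcl10 (-2.20) stand lower than their measured neighbours, and most grey squares lie near 0.

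Cxcl16, the ligand of CXCR6, had small spread and small differences. Probe set 1449195_s_at read 9.69, 9.90 and 9.82 on the controls and 9.06, 9.45 and 9.49 on the NFAT1 shRNA arrays. No NFAT1 shRNA array reached a control, and the difference was -0.47 ± 0.14 (SE), with control cells 1.39-fold higher. Probe set 1418718_at gave -0.28 ± 0.12 (SE), again without overlap, and its NFAT1 shRNA 2 array (9.62) was just under control 1 (9.64). Without NFAT1 shRNA 1 the differences were -0.33 and -0.19. Adam17, a protease that can shed membrane proteins, read 9.40 ± 0.08 and 9.03 ± 0.12 (SD, n = 3) on 1421858_at (limma adjusted p = 0.192). Its probe sets 1421857_at and 1421859_at differed less, by -0.14 and -0.13, and overlapped between groups.

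The CC chemokine genes overlapped between groups. Ccl2 (1420380_at), the main monocyte attractant, read 5.72, 7.53 and 6.63 on the controls and 5.76, 5.83 and 6.07 on the NFAT1 shRNA arrays. The controls spanned 3.50-fold, and the NFAT1 shRNA arrays, spanning 1.24-fold, sat near the lowest control. The difference was -0.74 ± 0.41 (SE), and -0.29 without control 2 and -1.19 without control 1. Ccl7 (1421228_at), beside Ccl2 on chromosome 11, read from 3.15 to 3.69 over all 6 arrays, below the array medians, with a difference of -0.05. Ccl11, Ccl12, Ccl8 and Ccl1, the next chemokine genes of that row, were dim as well, and Ccl8 read 3.70 ± 0.14 and 4.03 ± 0.17 (SD, n = 3; limma adjusted p = 0.276).

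Ccl20 (1422029_at), the ligand of CCR6, read 6.62, 7.84 and 7.40 on the controls and 6.31, 7.29 and 8.49 on the NFAT1 shRNA arrays. The NFAT1 shRNA group held both the lowest and the highest of the 6 arrays, spanning 4.51-fold. Its difference was 0.08 ± 0.56 (SE), and it ran from -0.48 to 0.60 when 1 array was left out.

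The members varied among arrays of 1 group more than most probe sets did. Controls spanned at least 1 log2 unit on 7 of the 13 probe sets, against 0.921% of all probe sets. The shares of all probe sets given here were not matched for brightness. A group mean was above the array medians on 12 of the 13, but on 23041 of all 45037. Control 2 was the highest control on 12 of the 13 and control 1 the lowest on the same number, Cxcl3 being the exception with its highest value on control 1. Over all probe sets control 2 was the highest control on 34.9%. NFAT1 shRNA 3 was the highest of its group on 10 of the 13, against 29.1% of all probe sets, the exceptions being Cxcr3, Cxcl3 and the Cxcl16 probe set 1418718_at. Cxcl1, Cxcl5, Ccl2, Ccl7 and Ccl20 all read lowest on control 1 and highest on control 2, and lowest on NFAT1 shRNA 1 and highest on NFAT1 shRNA 3. Cxcl16 had this order on 1449195_s_at but not on 1418718_at. The range within a group was larger than the difference between groups on 10 of the 13 probe sets. Cxcr3, Cxcl3 and Cxcl16 on 1449195_s_at were the other 3. These genes were measured on the same arrays, so their shared order is no independent evidence for any one of them.

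**Figure D4:**
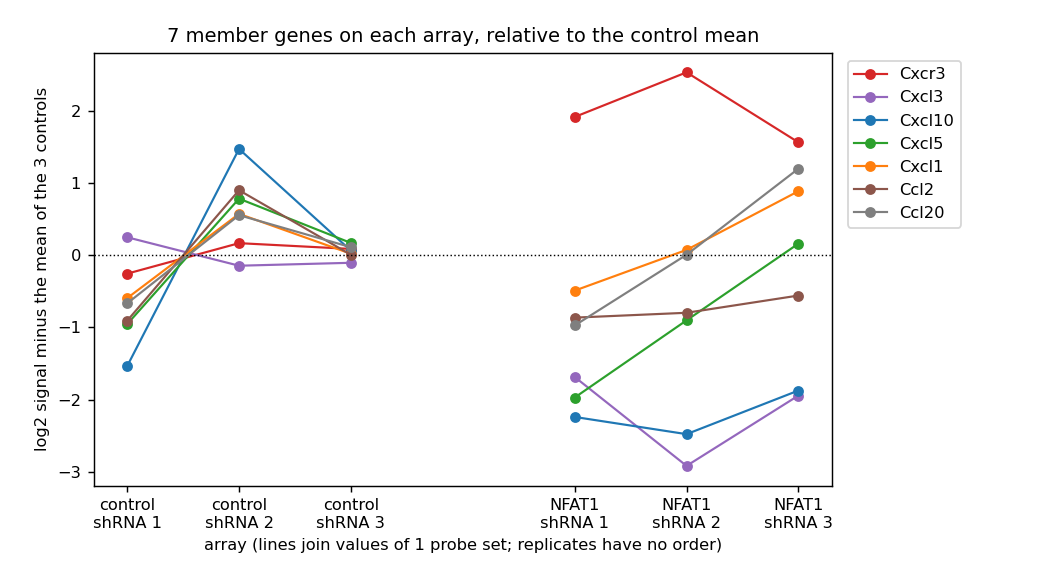
Log2 signal minus the mean of the 3 control arrays (y axis) for 7 of the genes on each array (x axis); lines join the values of 1 probe set and imply no order of replicates. Cxcl10, Cxcl5, Cxcl1, Ccl2 and Ccl20 are high on control 2 and low on control 1, and Cxcr3 and Cxcl3 differ little among controls.

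Likeness was measured as the root mean square difference, over the 6 arrays, between signals centred on their own means, among 17316 named probe sets with a group mean of at least 6. Most like Cxcr3 were Aspa (0.243), which encodes aspartoacylase, Scara5 (0.273), a scavenger receptor gene, Hs3st1 (0.278), a heparan sulfate sulfotransferase gene, Nptx1 (0.280) and Sema6d (0.291). Their differences ran from 1.67 for Aspa to 2.08 for Scara5. The measure includes the difference between groups, so genes picked by it have similar differences by construction. Cxcl10 had no match as close, but this distance can grow with a gene's own spread, which was large among its controls. The nearest were the antiviral gene Rsad2 on 2 probe sets (0.538 and 0.589), Dock11 (0.547), the T cell attractant gene Ccl5 (0.600) and Mfap3l (0.645). Ccl5 read 7.44, 9.33 and 8.63 on the controls and 6.61, 6.91 and 7.87 on the NFAT1 shRNA arrays, overlapping between groups (difference -1.33 ± 0.52 (SE), limma adjusted p = 0.299). Most like Cxcl1 on 1457644_s_at were Ifi47 (0.086), Antxr1 (0.132), Ly6e (0.134), Rnf122 (0.145) and Ifi202b (0.151), with differences from -0.0039 to 0.29.

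The rest of the chemokine system was read from 5 lists of 102 genes, of which 95 were measured by 185 probe sets. With limma over all probe sets 0 of the 185 passed, and 20 (10.8%) had an unadjusted p under 0.05, against 15.7% of all probe sets. Without overlap 14 (7.57%) were higher and 15 (8.11%) lower, against 11.6% and 9.33% of all, so each of these shares was below that of all probe sets. Of 21 probe sets of other CXC, CX3C and XC ligands (median difference 0.046), 16 were below the array medians on every array, and those of Cx3cl1, a membrane-bound ligand, differed by 0.28 to 0.74. Of 20 probe sets of other CC ligands (median 0.034), the one farthest apart without overlap was Ccl6 on 1417266_at. It read 5.15, 4.85 and 4.94 on the controls and 4.17, 3.73 and 3.94 on the NFAT1 shRNA arrays (difference -1.04 ± 0.14 (SE), limma adjusted p = 0.0637), all below the array medians. Its other probe set, 1420249_s_at, differed by -0.30 and overlapped between groups (limma adjusted p = 0.313). With 1 probe set per gene, that with the highest mean, Ccl6 passed. Ccl25 differed by 0.21 on 1458277_at without overlap (limma adjusted p = 0.348) and by -0.06 on 1418777_at, where the groups overlapped.

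Other chemokine receptors had a median difference of 0.073 over 34 probe sets, 27 of them below the array medians on every array. Cxcr2, the receptor of the neutrophil attractants, read 3.29 ± 0.09 and 3.42 ± 0.20, and Ccr6, the receptor of CCL20, read 4.81 ± 0.13 and 5.17 ± 0.48 (SD, n = 3). Cxcr6, the receptor of CXCL16, had differences of -0.05 and -0.06 on its 2 probe sets, and Ccr2 from 0.07 to 0.24 on its 4. Ackr3, an atypical receptor that takes up chemokines, read 10.03, 9.49 and 9.89 on the controls and 9.05, 8.19 and 9.40 on the NFAT1 shRNA arrays. The groups did not overlap, but it did not pass (difference -0.92 ± 0.31 (SE), limma adjusted p = 0.260). Ackr4, another scavenging receptor, differed by -0.38 on 1437668_at (limma adjusted p = 0.165) and -0.26 on 1437669_x_at, and by 0.03 on 1426139_a_at, which was below the array medians.

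Receptor signalling and ligand handling genes had a median difference of -0.055 over 62 probe sets, 40 of them with a lower mean. Besides Adam17 on 1421858_at, the lower ones without overlap included the syndecan gene Sdc1 on 1437279_x_at (-0.52, limma adjusted p = 0.301), the receptor kinase gene Grk5 on 1449514_at (-0.43, limma adjusted p = 0.241) and the arrestin gene Arrb2 on 1451987_at (-0.16). The other probe sets of these 4 genes also had lower means but overlapped between groups. The syndecan gene Sdc4 on 1417654_at (0.39, limma adjusted p = 0.186) was higher without overlap, and 1448793_a_at gave 0.31 with overlap. The probe sets of the G protein genes Gnb1 and Gnai3 disagreed in sign. Gnb1 differed by 0.17 on 1454696_at without overlap, by -0.17 on 1417432_a_at and by 0.04 on the dim 1425908_at. Gnai3 differed by 0.12 on 1428645_at without overlap and by -0.20 on 1437225_x_at. Inducers of chemokine genes had a median of 0.024 over 48 probe sets. Nfkbiz, an NF-kB cofactor gene, differed by -0.49 on 1457404_at (limma adjusted p = 0.279), and by -0.38 and -0.14 with overlap on its other probe sets. Nfkb2 differed by -0.19 on 1425902_a_at, and Il17ra by -0.13 on 1420905_at. Zfp36, whose product destabilises cytokine mRNAs, differed by 0.42 (limma adjusted p = 0.391).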

How the data were processed

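The 6 Affymetrix arrays, 3 per group, each carried labelled RNA made from 200 ng of total RNA of cultured 4T1 cells, and the labels gave the groups. The deposited values are log2 signals, for which the authors used RMA (submitters' processing notes, per the labels). This method corrects background, normalizes arrays by quantiles and summarises probe sets, so a shift of most transcripts would be hidden. The RMA version is not given in the sources used here. The platform annotation gave 34945 of 45037 probe sets 1 symbol, 932 several, and 9160 are unnamed here.

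The fit used limma 3.58.1 (lmFit, then eBayes) under R 4.3.3 over all probe sets, without filter or covariates, with Benjamini-Hochberg adjustment, and p-values are 2-sided. The members and lists were chosen with earlier results of these data known. From each list, genes that passed were to be named, and up to 4 each way with the largest difference without overlap and a group mean of at least 6; some others are named as receptors, markers, gene neighbours or nearest in pattern, chosen after values were seen where no list rule took them. The fit was tested on simulated data with 45037 probe sets, where it recovered 10.4%, 52.2% and 90.9% of log2 changes of 0.5, 1 and 2, with 4 false calls. The simulated errors were independent between arrays, with the measured spreads shuffled among probe sets. The measured arrays in part deviated together, so these rates need not hold for these data or for the members. Motifs were searched on both strands of RefSeq windows, and alignments made with biopython 1.88. The alternatives were a filter on dim probe sets (a signal of at least 6 on at least 3 arrays), other scaling, variance prior, array weights, replicate block, left-out arrays, 1 probe set per gene and no x or s probe sets. Precision is limited by the number of arrays.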

Additional observations from a re-analysis of the deposited data

How the results depend on the processing

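Under 15 alternatives, all 187 differences recomputed for the chemokine and Cxcr3 probe sets moved by less than 1 SD between replicates. Most of them could not move further. Leaving out 1 of 3 arrays shifts a difference by less than 1 SD, and several settings leave it unchanged by construction. The count of 187 is therefore no measure of stability. The sign of Cxcl1, Cxcl2, Ccl7 and Ccl20 turned in some of the alternatives, and that of Cxcr3, Cxcl10, Cxcl3, Cxcl5, Cxcl16 and Ccl2 in none. Counts of passing probe sets moved more. Over all probe sets, 90 passed, 2279 with array weights, 1432 with the replicate block, 0 without control 3 and NFAT1 shRNA 1 together (9273 at an unadjusted p under 0.05), and from 0 to 5794 without 1 array. The count was 0 without control 1, 2 or 3 or NFAT1 shRNA 2 (3992, 5086, 4251 and 4290 at an unadjusted p under 0.05), and 5794 without NFAT1 shRNA 1. Of the 13 chemokine and Cxcr3 probe sets, 0 passed, 1 with array medians subtracted, with the dim filter, with the trended and robust prior and with 1 probe set per gene (Cxcr3 each time), and 2 with array weights and with the replicate block (Cxcr3 and Cxcl3). Without 1 array from 0 to 2 passed: 2 without NFAT1 shRNA 1, 1 without NFAT1 shRNA 3 and 0 without any other. The share of all tested probe sets that passed was 0.195% with array medians subtracted, 0.423% with the dim filter and 0.189% with the trended prior. It was 0.511% with 1 probe set per gene, 5.06% with array weights, 3.18% with the replicate block and 12.9% without NFAT1 shRNA 1. Of the pathway list probe sets 0 passed, 1 with 1 probe set per gene and with the trended prior (Ccl6), 3 with array weights (Ccl6, Grk5 and Sdc4), 2 with the replicate block (Ccl6 and Ackr3) and from 0 to 7 without 1 array, the 7 without NFAT1 shRNA 1. Of the Nfatc2 probe sets 0 passed, 1 with array weights and 1 with the replicate block, and from 0 to 1 without 1 array. Nfatc2 on 1425901_at ran from -0.00016 (without control 2, the 1 sign that turned) to 0.081 over the fits without 1 array. The causes were not tested. Same-numbered arrays shared only a number: the correlations of their deviations were 0.619, 0.513 and 0.051, and 5 of 6 arrays were closest to their own number, a hint from the data and not the design. Signals below the array medians limit Ccl7 and Cxcl10 in NFAT1 shRNA cells.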
